A study of Arabidopsis thaliana with 12 samples.

Results

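The genes described are 4 that encode known parts of the photosynthetic light reactions and 1 that encodes a PsbP-domain protein. They are PSBW (AT2G30570) and PSBY (AT1G67740) of photosystem II, PSAN (AT5G64040) of photosystem I, the light-harvesting gene LHB1B2 (AT2G34420), and AT1G76450. These 5 genes, of the 691 genes that had a probe of their own on the array, were chosen from earlier results of the comparison reported here, so their differences between the groups are a description and carry no test. Each had 1 probe annotated to it alone. Arrays measured total RNA of Arabidopsis thaliana, wild type of the ecotype Wassilevskija, with 6 samples labelled water and 6 labelled as kept for 6 h in MS with 60 mM sucrose. MS (Murashige and Skoog) is a mineral salt medium of plant tissue culture, so the treated group differs from water in the medium as well as in the sugar, and the water labels give no time. The labels and files used here state neither the plant organ and age nor what the sample numbers 1 to 6 stand for. None of 8 marker genes listed for green tissue, root and seed had a probe of its own, so the organ could not be checked. In RNA from whole samples, fewer cells of a type and less RNA per cell cannot be told apart.

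Photosystem II and photosystem I are the pigment-protein complexes of the thylakoid membrane that carry out the light-driven steps of photosynthesis. Photosystem II oxidizes water, electrons pass through the cytochrome b6f complex and plastocyanin, and photosystem I passes them to ferredoxin. Light-harvesting proteins bind chlorophyll and pass absorbed energy to the photosystems. The genes described here lie in the nucleus, and their proteins are imported into the chloroplast. Sugar supply is known to lower the transcript levels of many photosynthetic genes in plants, a background fact that was not used to choose or weigh any value below.

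AT1G76450 was the member with a large difference: it was far higher in MS plus sucrose in every sample. The mean share of the signal was slightly larger for PSBW and PSBY and smaller for PSAN and LHB1B2, and in deposited intensity the groups overlapped for these 4 genes. Deposited intensities are linear, in arbitrary units, from 0 to a common ceiling that 2 to 8 probes reached in each sample and that the probes of the 5 genes did not reach. The probes differ in length and labelling to an unknown extent, so intensities are compared between samples of 1 probe and not between genes. Summed intensity over the 3439 probes was 3172 to 3296 in water and 3314 to 3456 in MS plus sucrose. Median intensity was 0.171 to 0.188 in water and 0.309 to 0.339 in MS plus sucrose. The 25 probes of highest mean intensity held 44.8% ± 0.920 (SD, n = 6) of the sum in water and 33.9% ± 0.316 (SD, n = 6) in MS plus sucrose. The sum was thus similar in both groups while the bulk of dim probes was brighter in MS plus sucrose, and a difference depends on which of these the samples are scaled to. For this reason each gene is given on the deposited scale, as a share of the summed intensity, and as a log2 difference after quantile normalization, which sets all samples to 1 common distribution.

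**Figure D1:**
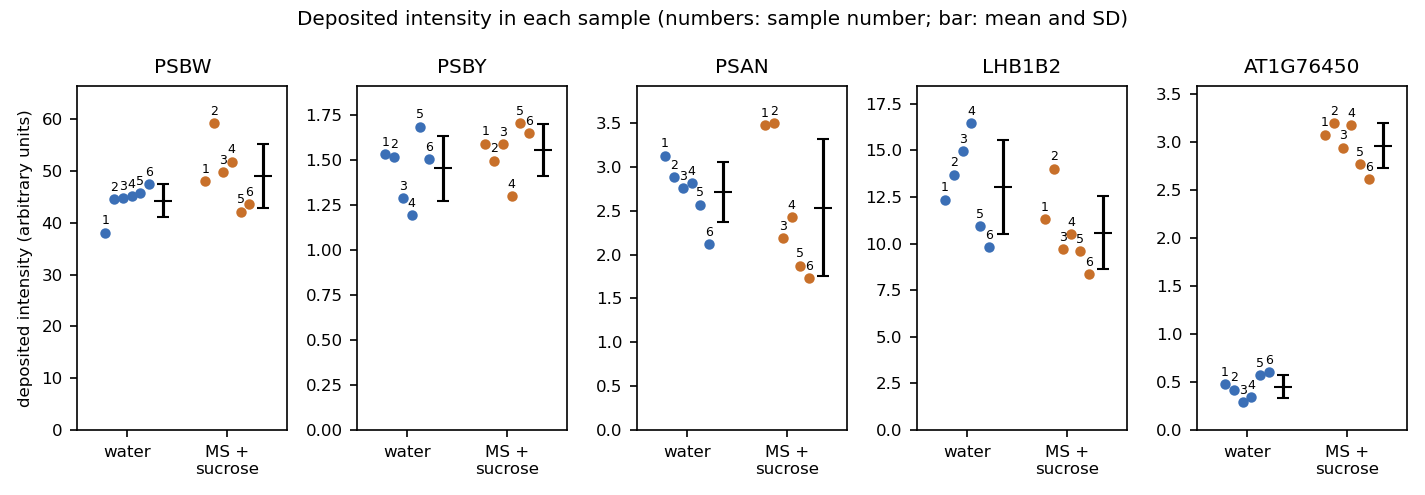
Deposited intensity (y axis, arbitrary units, a separate axis per gene) of the 5 genes in 6 water samples (blue) and 6 samples of MS plus sucrose (orange), with each point marked by its sample number and bars for the mean and SD. The groups lie apart for AT1G76450, at up to 0.600 in water and from 2.62 in MS plus sucrose, and overlap for the other genes.

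PSBW encodes a small membrane protein of photosystem II that is known for its part in joining the core to the light-harvesting antenna. Its deposited intensity ran from 38.1 over a median of 44.9 to 47.5 in the 6 water samples. In MS plus sucrose it ran from 42.1 over a median of 48.9 to 59.3. The highest value belonged to sample 2 of MS plus sucrose, and samples 5 and 6 of that group lay within the water range. Mean intensity was 44.3 ± 3.21 (SD, n = 6) in water and 49.1 ± 6.19 (SD, n = 6) in MS plus sucrose, a ratio of 1.11. As a share of summed intensity, PSBW held 1.37% ± 0.0955 (SD, n = 6) in water and 1.45% ± 0.192 (SD, n = 6) in MS plus sucrose. That difference was smaller than the spread of either group. After quantile normalization the picture differed: PSBW was 0.63 higher on the log2 scale (SE 0.09) and the groups did not overlap. In brightness order among the 3439 probes, its probe stood at places 12 to 16 in water and 9 to 11 in MS plus sucrose. It thus moved up within a top range whose own share of the signal was smaller in MS plus sucrose. A quantile-normalized value is set by this place, and several samples of a group had the same value. The SE of 0.09 and the gap between the groups thus reflect places in this order, not the spread of intensity. When each sample was instead centred on its median, PSBW was lower by 0.53 on the log2 scale (-0.53, SE 0.11), against 0.14 (SE 0.09) on the deposited scale. The direction for PSBW therefore depends on the scaling.

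PSBY encodes a low-mass membrane protein of photosystem II that lies beside cytochrome b559. In water its intensity ran from 1.19 over a median of 1.51 to 1.69. In MS plus sucrose it ran from 1.30 over a median of 1.59 to 1.71. Sample 4 was the lowest and sample 5 the highest in both groups. The share of summed intensity was 0.0448% ± 0.00500 (SD, n = 6) in water and 0.0458% ± 0.00381 (SD, n = 6) in MS plus sucrose, a difference below the SD of each group. PSBY was at -0.16 (SE 0.07) on the log2 scale after quantile normalization, at 0.10 (SE 0.09) on the deposited scale and at -0.57 (SE 0.08) with median centring. Within the 6 same-numbered pairs, its quantile-normalized level was lower in MS plus sucrose in each, by 0.018 to 0.26, while its deposited intensity was higher in 5 of 6.

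PSAN encodes subunit N of photosystem I, a protein on the lumen side that is known to help plastocyanin deliver electrons. Its water intensities ran from 2.12 over a median of 2.78 to 3.13, and those in MS plus sucrose from 1.73 over a median of 2.31 to 3.50. Samples 1 and 2 of MS plus sucrose, at 3.48 and 3.50, exceeded every water sample. Samples 5 and 6 of that group, at 1.87 and 1.73, lay below every water sample. PSAN held 0.0837% ± 0.0112 (SD, n = 6) of summed intensity in water and 0.0746% ± 0.0225 (SD, n = 6) in MS plus sucrose. The difference was -0.24 (SE 0.20) after quantile normalization, -0.14 (SE 0.18) on the deposited scale and -0.81 (SE 0.19) with median centring. Without a replicate block, PSAN had the widest error of the 5 genes after quantile normalization. That SE was 0.29 when samples 1 and 2, 3 and 4, and 5 and 6 of each group were averaged first. With the sample number fitted as a replicate block on the 12 samples, the SE was 0.13 for PSAN and 0.14 for AT1G76450.

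LHB1B2 encodes a chlorophyll a/b-binding protein of the major antenna of photosystem II, of the Lhcb1 type. Other Lhcb1 genes are very similar in sequence, and how much of their RNA this probe bound was not tested. Its intensity in water ran from 9.79 over a median of 13.0 to 16.5. In MS plus sucrose it ran from 8.37 over a median of 10.1 to 14.0. Sample 6 was lowest in both groups, and sample 2 of MS plus sucrose exceeded 4 of the 6 water samples. The share of summed intensity was 0.403% ± 0.0825 (SD, n = 6) in water and 0.312% ± 0.0569 (SD, n = 6) in MS plus sucrose, a ratio of 0.775. This share was lower in MS plus sucrose in 6 of 6 same-numbered pairs, although the ranges of the groups overlapped. LHB1B2 was at -0.28 (SE 0.12) after quantile normalization, at -0.29 (SE 0.15) on the deposited scale, at -0.12 (SE 0.14) with cyclic loess and at -0.96 (SE 0.16) with median centring. Its sign was the same under these 4 scalings, as was that of PSAN.

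AT1G76450 encodes a protein with a PsbP domain, the fold of the PsbP protein of the oxygen-evolving complex of photosystem II. Its intensity in water ran from 0.291 over a median of 0.448 to 0.600. In MS plus sucrose it ran from 2.62 over a median of 3.01 to 3.20. The lowest sample of MS plus sucrose was thus above the highest water sample. Mean intensity was 0.451 ± 0.122 (SD, n = 6) in water and 2.97 ± 0.235 (SD, n = 6) in MS plus sucrose, 6.58 times as high. The gene's share of summed intensity was 0.0139% ± 0.00358 (SD, n = 6) in water and 0.0875% ± 0.00753 (SD, n = 6) in MS plus sucrose, 6.31 times as high. After quantile normalization the difference was 2.25 on the log2 scale (SE 0.12), and it lay between 1.90 (SE 0.13) with median centring and 2.57 (SE 0.14) on the deposited scale. In brightness order its probe moved from places 613 to 1084 in water to places 125 to 155 in MS plus sucrose. Relative spread also differed between groups, with a coefficient of variation of 27.1% in water and 7.92% in MS plus sucrose. When the 691 genes were ordered by this difference, AT1G76450 had place 2 from the highest and PSBW place 93.

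**Figure D2:**
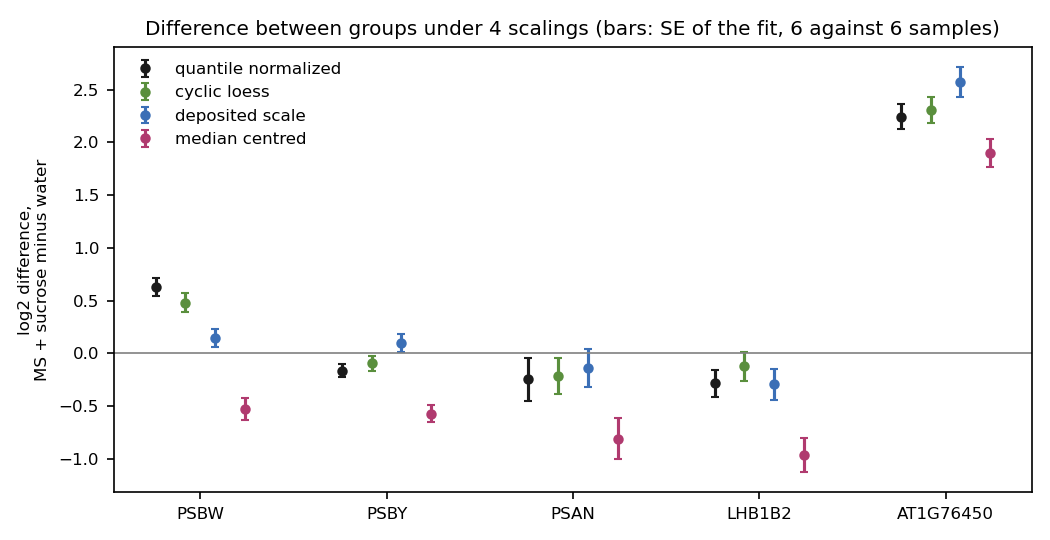
Log2 difference, MS plus sucrose minus water (y axis), of the 5 genes under 4 scalings of the samples, with bars for the SE of the limma fit (6 against 6 samples). AT1G76450 lies between 1.90 and 2.57 under all 4, PSAN and LHB1B2 lie below 0 under all 4, and PSBW and PSBY change sign between scalings.

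The 5 genes together held 1.91% ± 0.122 (SD, n = 6) of summed intensity in water and 1.97% ± 0.264 (SD, n = 6) in MS plus sucrose. Without AT1G76450 the other 4 held 1.90% ± 0.124 (SD, n = 6) and 1.88% ± 0.257 (SD, n = 6). Their combined share thus differed by less than the spread between samples. In the fit across all 3439 probes (limma, quantile normalized, adjusted p threshold 0.05), MS plus sucrose was called higher for 18.1% of probes and lower for 19.3%. Among the 5 genes, PSBW and AT1G76450 were among the higher calls and 0 were among the lower ones. Nothing is read from that count, because this comparison chose the genes. With the sample number as a replicate block, 18.6% of probes were called higher and 19.7% lower, and PSBY joined the lower calls. With adjacent numbers averaged and the block kept, 7.62% of probes were called higher, PSBW and AT1G76450 among them, and 8.55% lower, and PSBY was no longer called. On the 12 samples without a block, PSBY was not called, but it was called lower without water sample 4 (-0.19, with 17.3% of probes called lower). It was also called lower without numbers 3 and 4 of both groups (-0.18, with 14.4%). LHB1B2 was called lower without water sample 6 (-0.37, with 17.6% of probes called lower) and without numbers 5 and 6 of both groups (-0.38, with 16.5%). After quantile normalization the call of PSBY thus depended on the replicate block and on the samples used. That of LHB1B2 depended on the samples used. Nothing is read from these calls either, because this comparison chose the genes. Under median centring AT1G76450 was called higher and the other 4 lower, where 14.2% of all probes were called higher and 37.0% lower. On the deposited scale only AT1G76450 was called, where 44.2% of probes were called higher and 6.89% lower. In deposited intensity 29.5% of all probes, and in share of summed intensity 27.6%, had groups that did not overlap and were higher in MS plus sucrose. AT1G76450 was the 1 of the 5 among them. The share of probes with groups apart in the lower direction was 4.36% in deposited intensity and 5% in share of summed intensity, with 0 of the 5 genes. After quantile normalization 10.3% of probes had groups that were apart and higher, among them PSBW and AT1G76450, and 12.6% had groups that were apart and lower, with 0 of the 5. The median log2 difference of the 5 genes after quantile normalization was -0.16, against 0.0043 over all probes. Over all probes the median was 0.38 on the deposited scale and -0.29 with median centring. Relative to these medians, PSBY, PSAN, LHB1B2 and PSBW lay below the array's median on both of those scales, and AT1G76450 above it.

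A ratio of 2 members within a sample does not depend on a factor common to its probes, except through the 0.0718 added to intensities. It shows unequal change only. On the log2(intensity + 0.0718) scale, the ratio of PSBW to AT1G76450 changed by -2.43 (SD 0.32 over 6 same-numbered pairs) from water to MS plus sucrose. The corresponding change was -2.47 (SD 0.39) for PSBY, -2.71 (SD 0.45) for PSAN and -2.86 (SD 0.63) for LHB1B2, each over AT1G76450, with groups that did not overlap. Without the added 0.0718, the changes over AT1G76450 were -2.62 for PSBW, -2.66 for PSBY, -2.90 for PSAN and -3.06 for LHB1B2. Among the other 4 genes the changes were smaller and all groups overlapped. PSBW changed by 0.28 (SD 0.14) relative to PSAN and by 0.44 (SD 0.33) relative to LHB1B2, each higher in 6 of 6 pairs. PSBW over PSBY changed by 0.047 (SD 0.27), higher in 3 of 6 pairs, and PSAN over LHB1B2 by 0.16 (SD 0.26), higher in 4 of 6. PSBY changed by 0.23 (SD 0.35) relative to PSAN, higher in 4 of 6 pairs, and by 0.39 (SD 0.37) relative to LHB1B2, higher in 5 of 6. In the order of the changes AT1G76450 was far above the rest, followed by PSBW, PSBY, PSAN and LHB1B2. A shift that differs between bright and dim probes, like that described above for the whole array, does not cancel in such ratios. Its part in this order was not tested. Each neighbouring pair within these last 4 genes differed by less than the SD over pairs.

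The genes differed from each other in how their values varied with the sample number. The log2 ratio of the PSBW share, MS plus sucrose over water, averaged 0.29 in numbers 1 and 2, 0.12 in numbers 3 and 4 and -0.18 in numbers 5 and 6. For PSAN the same averages were 0.14, -0.33 and -0.43. In share, PSBW and PSAN were therefore both higher in MS plus sucrose in numbers 1 and 2 and both lower in numbers 5 and 6. After quantile normalization the differences of PSAN kept these signs, at 0.17, -0.36 and -0.54, but PSBW was higher throughout, at 0.56, 0.60 and 0.73, and most so in numbers 5 and 6. LHB1B2 averaged -0.12, -0.69 and -0.27, with the lowest ratios in numbers 3 and 4. PSBY averaged -0.062, 0.15 and 0.015. AT1G76450 averaged 2.73, 3.21 and 2.14, so its ratio was largest in numbers 3 and 4 and smallest in numbers 5 and 6, and the water samples of numbers 3 and 4 held its 2 lowest intensities, 0.291 and 0.346. The part of whatever the numbers stand for in these differences was not tested. Separate plants or cultures for the 6 samples of a group are nowhere stated, so errors and p-values measure the spread among these samples, which may be technical.

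**Figure D3:**
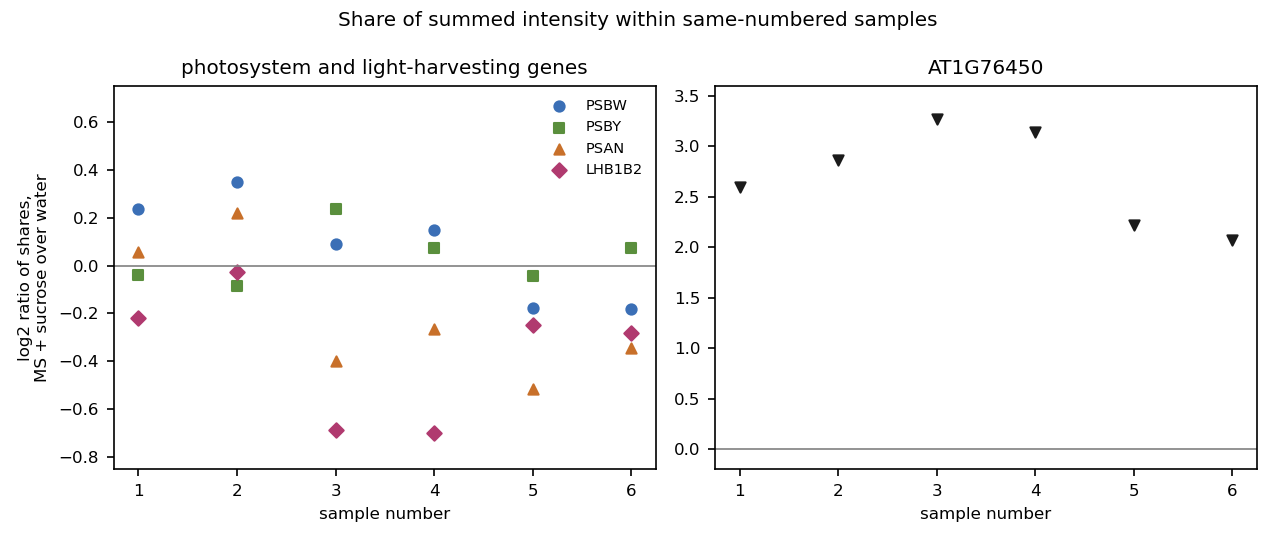
Log2 ratio of each gene's share of summed intensity, MS plus sucrose over water (y axis), within same-numbered samples (x axis, sample number), with the 4 photosystem and light-harvesting genes on the left and AT1G76450 on the right on its own axis. LHB1B2 lies below 0 for all 6 numbers, PSBW and PSAN lie above 0 for numbers 1 and 2 and below 0 for numbers 5 and 6, and AT1G76450 lies between 2.07 and 3.27.

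Few other genes of the photosynthetic apparatus could be set beside these. Lists of subunits of photosystems I and II, light-harvesting proteins, PsbP-domain proteins, electron transport, ATP synthase and the NDH complex held 75 genes besides the 5, and 2 of the 75 had a probe of their own. Of these 2, 0 passed in either direction after quantile normalization (limma), where 18.1% of all probes were called higher and 19.3% lower. An unadjusted p under 0.05 in that fit was found for 0 of them. Nothing is read from a count over 2 genes. PSB27, which encodes a factor that aids assembly and repair of photosystem II, ran from 0.389 over a median of 0.888 to 1.05 in water. In MS plus sucrose it ran from 0.291 over a median of 1.27 to 2.61, and the fitted log2 difference was 0.10 (SE 0.48, adjusted p = 0.905 by limma). Its spread was wide and moved with the sample number, with the lowest values in samples 1 and 2 and the highest in samples 5 and 6 of both groups. NdhN, a subunit of the chloroplast NDH complex of cyclic electron flow, was listed at 0 in 5 of 6 samples of each group and above 0 only in sample 2 of each. Its difference was 0.14 (SE 0.17, adjusted p = 0.560 by limma). Under median centring NdhN was called lower (-0.50, adjusted p = 0.0338 by limma), as were 37% of all probes. Its only intensities above 0 went the other way, at 0.0830 in MS plus sucrose and 0.00435 in water.

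The genes whose quantile-normalized values ran most like each member were sought in 526 genes whose own probe was listed above 0 in all 12 samples. Likeness is Pearson's r over the 12 samples, which fall into 2 groups and share sample numbers, so it is a description. For AT1G76450 these were AT4G18180 (r = 0.989), AT4G22190 (r = 0.983) and AT1G13990 (r = 0.975). With each group's mean removed, the same genes had r of 0.578, 0.560 and 0.172. PSBW ran most like AT2G46850 (r = 0.922), AT4G17650 (r = 0.921) and GLDH (r = 0.918), the gene of L-galactono-1,4-lactone dehydrogenase, but within groups these r were 0.244, 0.258 and 0.366. For PSAN the closest genes were AT4G32340 (r = 0.894), AT2G03200 (r = 0.873) and UBA1A (r = 0.865), with within-group r of 0.884, 0.858 and 0.923. PSAN's likeness thus lay in the spread between samples of a group, whereas that of PSBW lay mainly in the difference between groups. LHB1B2 ran most like AT4G29120 (r = 0.776), GH9B11 (r = 0.775) and AT2G05120 (r = 0.760), and PSBY most like AT1G51350 (r = 0.782), AT5G62360 (r = 0.760) and AT1G50880 (r = 0.759). None of the other 4 members was among the 3 closest genes of any member.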

How the data were processed

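Per the file headers, the deposited table holds 1 linear intensity per probe and sample (3439 probes, 12 samples); the sources used here do not give the array type or how the authors subtracted background and scaled. An exact 0 made up 13.6% of values. Values were used as log2(intensity + 0.0718), the offset being the 10th percentile of values above 0; a fold on this scale understates changes of dim probes. Sample medians lay 0.758 apart on that scale, so samples were quantile normalized. Probes were fitted with limma 3.58.1 in R 4.3.3 (lmFit, eBayes with trend, 6 against 6, two-sided), Benjamini-Hochberg adjusted over 3439 probes at 0.05; the code was tested on simulated data. Share is intensity over the sample's summed intensity. Errors cover 6 arrays per group, which may not be independent and whose number limits the precision.

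Of the probes, 692 had 1 gene in the platform annotation, 870 several and 1877 none here; 690 matched the TAIR10.1 gene table, used for names only. The brightest probe stood for a gene. Members and lists were chosen with earlier results of these data known. Named are the members, list genes with their own probe, and the 3 genes of highest r per member.

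Same-numbered samples of the groups correlated in their deviations from the group means at 0.174 to 0.390 across probes in 6 pairs, so the numbers pair the samples; the data show this pairing and the labels do not state it. Adjacent numbers within a group correlated at 0.121 to 0.309, and other pairs of numbers within a group at -0.447 to -0.134. Removing the group mean by itself lowers correlations within a group, so nothing is read from the negative values. Given the positive values of adjacent numbers, the 6 samples of a group may not be independent. With adjacent numbers averaged and no replicate block, the SE of the log2 difference was 0.11 for PSBW, 0.069 for PSBY and 0.29 for PSAN. It was 0.15 for LHB1B2 and 0.17 for AT1G76450. With the number as a replicate block on the 12 samples, the SE was 0.073 for PSBW, 0.041 for PSBY and 0.13 for PSAN. It was 0.094 for LHB1B2 and 0.14 for AT1G76450. Alternatives were other scalings, offset, zeros as missing, dim probes left out, replicate block, averaged adjacent numbers, no trend, other totals for shares, and samples left out. Figures used matplotlib 3.10.9.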

Additional observations from a re-analysis of the deposited data

Results flagged for a closer look

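In 28 sets of 6 values (deposited intensity and share of summed intensity of 7 genes in 2 groups), 1 sample lay apart from the rest in 6 sets, against about 1.4 by chance. Intensity and share are nearly the same measure, so the 6 are 3 cases. The 1.4 is for all 28 sets and does not apply to these 3, so nothing is read from the count. PSBW was lowest in water sample 1, with a gap of 0.687 of the group's range for deposited intensity and 0.702 for share. NdhN was above 0 only in sample 2 of each group, in intensity and in share, which makes each of these 4 gaps the whole range (1).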

How the results depend on the processing

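Over 23 results, 420 alternative values were computed, of which 400 stayed within the replicate spread of the reported value or, for counts, within 1.5 times. That count does not measure robustness, because many alternatives could hardly move a value. Leaving out 1 sample made up 276 of them, and all 276 stayed. Settings that change only the error of the fit, such as the replicate block, return the same log2 difference of a member. Scaling moved the log2 differences most. On the deposited scale PSBW was at 0.14, PSBY at 0.10 and AT1G76450 at 2.57. With median centring PSBW reversed to -0.53, PSBY was at -0.57, PSAN at -0.81, LHB1B2 at -0.96 and AT1G76450 at 1.90. Under that centring NdhN, 1 of the 2 other photosynthesis genes, was called lower, as were 37% of all probes. With cyclic loess PSBW was at 0.48. Probes called higher numbered 624, against 1519 on the deposited scale, 349 with adjacent numbers averaged and 262 when these averages also had a replicate block. Probes called lower numbered 665, against 237 on the deposited scale, 1271 with median centring, 402 with adjacent numbers averaged and 294 with a replicate block on these. With the number as a replicate block on the 12 samples, 638 were higher and 678 lower; the pairing turned PSBY (-0.16) to a lower call, which was lost with a replicate block on the averages, and changed no call of the other 4 genes. Without the 25 brightest probes in the total, the log2 ratio of shares was -0.17 for PSBW (0.085 with all probes) and -0.23 for PSBY (0.032 with all). The gene's own probe was always kept in that total, which matters for PSBW as a very bright probe. The log2 ratio of shares of AT1G76450 was 2.95 without numbers 5 and 6, an alternative chosen after seeing the data. Without the probes at the ceiling, PSBW was at -0.054 and PSBY at -0.10, so the sign of these share ratios depends on the total used.

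Leaving out each sample in turn gave a log2 difference of 0.59 to 0.68 for PSBW, -0.19 to -0.12 for PSBY, -0.36 to -0.12 for PSAN, -0.37 to -0.20 for LHB1B2 and 2.15 to 2.30 for AT1G76450. The log2 ratio of shares ran from 0.026 to 0.13 for PSBW, -0.015 to 0.074 for PSBY, -0.28 to -0.076 for PSAN, -0.46 to -0.29 for LHB1B2 and 2.56 to 2.75 for AT1G76450. Higher probes numbered 544 to 619, lower ones 589 to 673, and 0 of the 2 other photosynthesis genes passed. The cause of these shifts was not tested. The size of NdhN, at 0 in most samples, is limited by signal.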
